A study of Rattus norvegicus with 9 samples.

Results

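The hearts of rats that received remote ischemic postconditioning (RPostC) after ischemia and reperfusion were compared with control hearts, and genes that stood apart from control in them but not after ischemia-reperfusion injury (IRI) alone were described above all. Of the 9 arrays of the series, the comparison used 6, which were 3 IRI + RPostC arrays and 3 control arrays, and the 3 IRI arrays served to separate the genes. In IRI + RPostC rats the left anterior descending coronary artery was occluded for 45 min, and 3 cycles of clamping the left femoral artery (30 s) and releasing it (30 s) came next, before 15 min of stabilization. IRI rats had the same 45 min of occlusion and 15 min of stabilization without the femoral clamping. In control rats a thread was placed around the vessel for 60 min without occlusion, so that anesthesia, ventilation and opening of the chest were shared by all 3 groups. The rats were male Wistar rats of 250 to 290 g, and the age in weeks was not given in the sources used here. The RNA came from the left ventricle, the general description of the surgery gives 30 min of ligation in place of 45 min, and a time of tissue collection is given for infarct staining but was not found for the RNA.

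Remote conditioning is a procedure in which brief interruptions of blood flow in a limb protect the heart against injury. Its signal is carried from the limb to the heart by blood-borne factors and by nerves, and inside the cardiomyocyte it is known to act on the salvage kinases, on STAT3 and on the opening of a pore in the mitochondrial membrane. Reperfusion itself brings a burst of oxygen radicals, induces immediate early genes, activates NF-κB in endothelial cells and draws in neutrophils and monocytes, which roll on selectins and attach to ICAM1 and VCAM1. Both processes meet in the left ventricle, where cardiomyocytes, endothelial cells, fibroblasts and leukocytes all add RNA to the sample.

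After the array controls were set aside, 65403 of the 65526 probe sets entered the test. Exactly 1 gene symbol was attached to 22070 of them, which covered 21013 genes. Values are log2 signals from the authors' robust multichip analysis, and the log2 difference is the mean of the 3 IRI + RPostC arrays minus the mean of the 3 control arrays. A probe set was called higher or lower at an adjusted p under 0.05 from limma. Whether each array of a group stands for another rat is not stated, and the p-values therefore measure the spread among arrays, which may be technical. A signal under 4.79, the 95th percentile of 1361 probe sets of olfactory, vomeronasal and taste receptors, on all arrays of a group was taken as not above background there. In bulk tissue, fewer cells of a type and less RNA per cell cannot be told apart.

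Saturation at a log2 signal of 19 or more differed between the groups before any gene was considered. On the IRI + RPostC arrays 1944 to 1948 probe sets reached 19, on the IRI arrays 1918 to 1948, and on the control arrays 166 to 172. In all, 1758 probe sets were at 19 or more on every IRI + RPostC array while no control array reached that level. Of these, 1755 were called higher, and 15 had a single gene symbol. Array medians lay at 4.36 to 4.47 in IRI + RPostC and at 4.51 to 4.55 in control on the log2 scale, and the mean of the 4 hybridization controls, transcripts added to every sample, was 10.44 in IRI + RPostC and 11.21 in control. The 3 IRI + RPostC arrays carried one and the same log2 value for 8175 probe sets, the 3 IRI arrays for 8176 and the 3 control arrays for 3454. An IRI + RPostC array and an IRI array carried an identical value for 53.4% of the probe sets. The share was 38.1% for IRI + RPostC with control and 38.2% for IRI with control. Identical values were not confined to the top of the scale, and they lower the spread on which SDs and p-values rest. Group and processing cannot be told apart at the top of the scale, so genes with an array at 19 or more were not named.

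**Figure D1:**
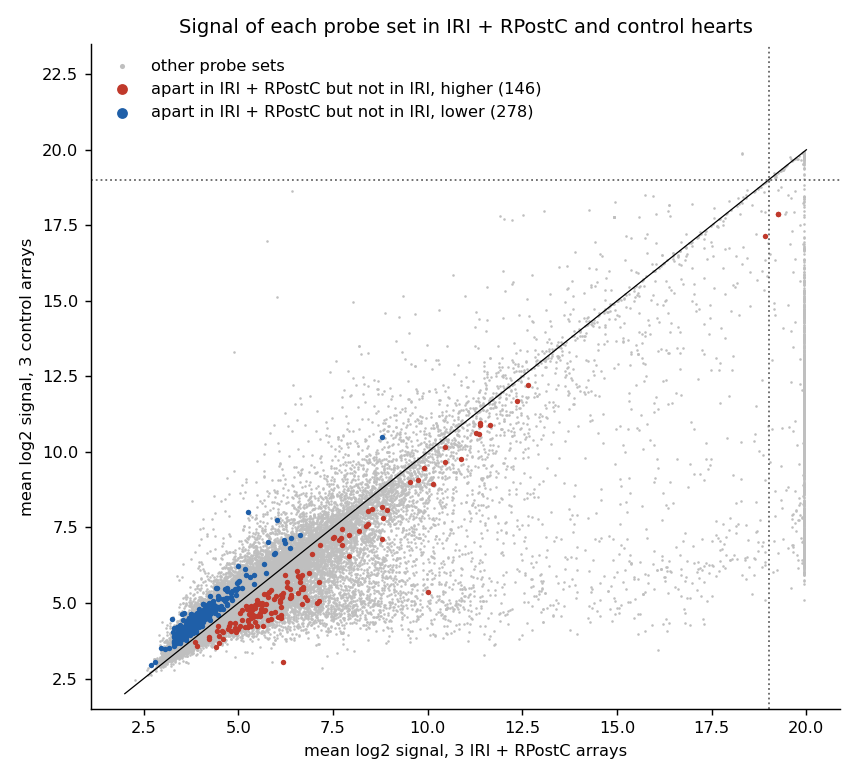
Mean log2 signal of each of the 65403 probe sets on the 3 IRI + RPostC arrays (horizontal axis) and the 3 control arrays (vertical axis), with the diagonal of equal signal and dotted lines at 19. The column of points at the right edge holds the probe sets saturated in IRI + RPostC, while the 146 higher and 278 lower probe sets that stood apart in IRI + RPostC but not in IRI lie close to the diagonal and mostly under 10.

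Transcripts of the noncoding genes that stood apart are shown by sequence, since 4 miRNA genes, Mir30d, Mir23a, Mir10a and Mir3595, were among the 278 probe sets lower in IRI + RPostC and not in IRI. The opposite set, lower in IRI and not in IRI + RPostC, held 5 miRNA genes among 97 probe sets. The share of miRNA genes over all probe sets is not given here, so nothing is read from these counts. Mature sequences of 3 of the 4 miRNA genes named are in the RefSeq table of the GRCr8 build. They are written 5′ to 3′, with the seed, the bases that pair with target mRNAs, in capitals.
rno-miR-23a-3p, chr19:40859778-40859798, minus strand: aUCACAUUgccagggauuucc
rno-miR-10a-5p, chr10:81779730-81779752, plus strand: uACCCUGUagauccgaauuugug
rno-miR-3595, chr6:134559421-134559439, minus strand: gUGGAUUUuccucuacgau
No seed is shared between them, so these genes belong to different seed families.

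The array probes the transcript of the miRNA gene, not the mature RNA, and the signals were low. Mir30d, whose family is abundant in cardiomyocytes, had log2 signals of 5.17, 5.01 and 5.31 in IRI + RPostC hearts, 5.67, 5.50 and 6.32 in IRI hearts, and 6.06, 5.95 and 6.36 in control hearts. Mir23a, which is transcribed in a cluster with other miRNAs, had 4.91, 4.72 and 4.46 in IRI + RPostC hearts, 5.15, 5.31 and 4.84 in IRI hearts, and 5.16, 5.46 and 5.55 in control hearts. In both genes every IRI + RPostC array lay under every control array, while an IRI array reached the control range. Mir10a and Mir3595 stayed under 4.79 on every array of the IRI + RPostC and IRI groups and on most or all control arrays, so their signals lie near or within the background and no difference is given.

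Promoters are shown for 4 genes of the endothelial and cytokine response of the results that follow, the adhesion molecules Vcam1 and Icam1, the chemokine Cxcl10 and the cytokine Il6. Each runs from 250 bases before to 50 bases after the RefSeq start in GRCr8. The letters GGNNNTTCC, a loose form of the site that NF-κB binds, were searched on both strands, where matches may overlap, and are in capitals.
Vcam1, chr2:206742734-206743033, minus strand: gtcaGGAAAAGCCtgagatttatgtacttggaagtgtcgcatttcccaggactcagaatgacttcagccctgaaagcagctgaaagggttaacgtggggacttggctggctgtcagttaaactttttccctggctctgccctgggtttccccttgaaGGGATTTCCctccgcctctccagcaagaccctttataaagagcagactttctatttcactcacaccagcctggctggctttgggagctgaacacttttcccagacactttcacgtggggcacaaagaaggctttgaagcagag
Cxcl10, chr14:15988816-15989115, plus strand: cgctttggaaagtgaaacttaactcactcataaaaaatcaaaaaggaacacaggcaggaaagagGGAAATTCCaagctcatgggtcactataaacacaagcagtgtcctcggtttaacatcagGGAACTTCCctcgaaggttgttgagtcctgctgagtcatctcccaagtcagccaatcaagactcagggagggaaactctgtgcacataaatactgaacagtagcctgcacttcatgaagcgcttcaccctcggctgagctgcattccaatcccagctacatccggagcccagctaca
Icam1, chr8:27829595-27829894, plus strand: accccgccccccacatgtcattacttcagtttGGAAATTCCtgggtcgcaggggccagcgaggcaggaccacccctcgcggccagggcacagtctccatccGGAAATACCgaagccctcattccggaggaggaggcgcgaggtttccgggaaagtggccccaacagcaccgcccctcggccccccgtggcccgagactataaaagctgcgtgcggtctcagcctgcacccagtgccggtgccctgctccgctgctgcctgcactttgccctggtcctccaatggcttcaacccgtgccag
Il6, chr4:5894526-5894825, minus strand: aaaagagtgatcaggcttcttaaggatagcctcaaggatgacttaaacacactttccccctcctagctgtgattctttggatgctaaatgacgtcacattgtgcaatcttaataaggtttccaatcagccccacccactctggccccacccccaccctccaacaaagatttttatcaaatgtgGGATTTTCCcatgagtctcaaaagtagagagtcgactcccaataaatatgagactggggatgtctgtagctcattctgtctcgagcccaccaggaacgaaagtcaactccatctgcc
Vcam1, Cxcl10 and Icam1 each had 2 matches and Il6 had 1. The letters are common, since 18.3% of the 27457 promoters in the table hold them. Of the 222 promoters of bright protein-coding genes that were apart in IRI + RPostC and not called in IRI, 19.4% held them. The share was 21.5% of 1445 promoters of bright protein-coding genes higher in IRI + RPostC and 16.0% of 25 promoters of such genes apart in IRI + RPostC and not in IRI, while 2868 of all 15128 promoters of protein-coding genes measured held the letters.

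Against control, 14 of 26 immediate early genes, 15 of 36 cytokine genes, 20 of 40 interferon response genes and 16 of 32 clotting genes were higher in IRI + RPostC hearts. In these lists IRI hearts gave 16, 15, 20 and 16 higher against control, so such counts are not particular to IRI + RPostC. Contractile genes (19) and matrix genes (21) gave the same number higher in both comparisons. Ccl2, Osmr, Il6st, Egr1, Parp9 and Mcl1, named below, were called higher in IRI too. The falls of largest size in IRI + RPostC hearts included Fitm1, Slc6a8, Pdk2 and Ppargc1a, genes of lipid storage, creatine uptake and mitochondrial fuel use. In all, 7025 probe sets were higher (10.7% of those tested) and 4547 were lower (6.95%). Counted with 1 probe set per gene, that of highest mean signal, 2139 genes were higher (10.2%) and 2067 were lower (9.84%). All IRI + RPostC arrays lay above all control arrays in 15.6% of the probe sets and 15.7% of the genes, and below them in 17.3% and 19.8%. The IRI arrays, set against the same control arrays, gave 6509 probe sets higher (9.95%, or 8.9% of the genes) and 4094 lower (6.26%, or 9.42% of the genes). Set against IRI, the IRI + RPostC arrays gave 0 calls in limma (0.0%), where the smallest adjusted p was 0.290. Of the 65403 probe sets, 2294 had an unadjusted p under 0.05 in limma, against 1444 in the methods' t-test. Unadjusted counts arise without any difference as well, so nothing is read from them. All IRI + RPostC arrays lay above all IRI arrays in 2.63% of the probe sets and 2.89% of the genes, and below them in 3.2% and 1.68%.

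The direction of many calls depended on the scaling of the arrays. Higher probe sets made up 60.7% of those called as deposited, 35.4% after quantile normalization and 75.8% after each array was centred on its median. Centring shifted the median log2 difference of all genes to 0.08, against -0.04 as deposited. After quantile normalization 4.97% of the genes were higher and 24.4% lower. For this reason the text says where the direction of a named gene or of a list's median turned after quantile normalization.

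Il6, the leading acute-phase cytokine, was not above background in control hearts and had the largest rise of the genes named here. Its log2 signals were 16.53, 15.43 and 15.28 in IRI + RPostC hearts, 11.73, 13.44 and 16.60 in IRI hearts, and 4.32, 4.41 and 3.55 in control hearts, a difference of at least 10.96 (adjusted p = 0.0003). Ccl2, which attracts monocytes, rose by 10.37 on the log2 scale (standard error 0.82, adjusted p = 9.55e-05), with 16.14, 15.97 and 15.07 in IRI + RPostC hearts and 5.04, 5.54 and 5.49 in control hearts. Cxcl1, which attracts neutrophils, stood at 15.18 ± 0.68 in IRI + RPostC and 6.82 ± 0.22 in control (SD, n = 3 each, adjusted p = 0.000235). The receptors that pass on signals of the Il6 family rose with it. Osmr, the oncostatin M receptor, was 15.78 ± 0.34 in IRI + RPostC and 7.17 ± 0.37 in control (adjusted p = 2.14e-06), and Il6st, the shared gp130 subunit, was 10.29 ± 0.21 in IRI + RPostC and 7.12 ± 0.11 in control (adjusted p = 8.6e-07). Of the 36 cytokines and receptors measured, 15 were higher and none lower, 21 did not pass, and the median log2 difference was 0.43, where the median of all genes was -0.04. Of the 31 chemokines and chemokine receptors 10 were higher and 1 lower, with a median of 0.43, and 9 of the 31 were not above background in any group. Ackr3, a scavenging receptor for CXCL12, had 11.38 ± 0.33 in IRI + RPostC and 7.72 ± 0.27 in control (adjusted p = 5.12e-05).

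Immediate early genes, which respond to injury without new protein synthesis, were higher in 14 of 26 cases and lower in none. Egr1, a zinc finger transcription factor, had 12.92, 12.29 and 12.48 in IRI + RPostC hearts and 5.35, 6.13 and 6.34 in control hearts, and its difference was 6.62 (standard error 0.31, adjusted p = 4.18e-06). Nr4a1, an orphan nuclear receptor, had 8.94, 8.66 and 9.05 in IRI + RPostC hearts, 8.20, 8.20 and 8.20 in IRI hearts, and 6.13, 6.79 and 6.53 in control hearts. No IRI + RPostC array of Nr4a1 overlapped an IRI array, while those of Egr1 did. The median of the list was 0.94 as deposited and 0.70 after quantile normalization.

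In the NF-κB, TNF and death receptor list 17 of 37 genes were higher and 1 was lower, with a median of 0.29. Nfkb1, the p105 and p50 subunit of NF-κB, had 8.74, 8.66 and 8.81 in IRI + RPostC hearts, 8.06, 8.05 and 8.07 in IRI hearts, and 6.21, 6.25 and 6.10 in control hearts (adjusted p = 1.04e-07 against control). Cflar, which blocks caspase 8, was 10.39 ± 0.33 in IRI + RPostC, 9.75 ± 0.01 in IRI and 5.36 ± 0.16 in control (adjusted p = 6.94e-07). Tnfaip3, the A20 enzyme that ends NF-κB signaling, was 10.58 ± 0.37 in IRI + RPostC, 8.94 ± 1.26 in IRI and 4.85 ± 0.33 in control (adjusted p = 0.000423). For these 3 genes all IRI + RPostC arrays lay above all IRI arrays, as for 8 of the 37 in the list and 2.89% of all genes. None of the 3 passed an adjusted p of 0.05 in limma between IRI + RPostC and IRI. Whether the list differs from all genes in this was not tested. The Toll-like receptor list had 8 of 28 genes higher and none lower. Cd14, the co-receptor for lipopolysaccharide, had 7.20, 7.27 and 6.93 in IRI + RPostC hearts, 6.46, 6.46 and 6.46 in IRI hearts, and 6.06, 6.12 and 5.89 in control hearts (adjusted p = 0.000184), and Irak3, an inhibitor of this pathway, rose by 1.94 (adjusted p = 3.81e-05). The 40 interferon response genes gave 20 higher and 1 lower, with a median of 0.52. Parp9 was 8.17 ± 0.27 in IRI + RPostC and 5.44 ± 0.18 in control (adjusted p = 1.47e-05), and B2m, the light chain of MHC class I, had the same signal of 17.45 on all 6 IRI + RPostC and IRI arrays, against 10.32, 9.72 and 8.62 in control hearts.

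The clotting and matrix lists held many higher genes. Of 32 coagulation and fibrinolysis genes 16 were higher and 1 was lower, and 11 were not above background in any group. Plat, the tissue plasminogen activator, had 13.94, 13.64 and 13.84 in IRI + RPostC hearts, 12.66, 12.49 and 12.79 in IRI hearts, and 5.67, 5.91 and 5.81 in control hearts (adjusted p = 1.04e-08). Anxa2, which binds this activator on endothelial cells, was 10.83 ± 0.43 in IRI + RPostC and 6.75 ± 0.10 in control (adjusted p = 5.71e-06). Of 44 collagens and matrix genes 21 were higher and 3 lower, with a median of 0.34 as deposited and -0.02 after quantile normalization, so its sign turned. Adamts9, a matrix protease, was 14.59 ± 0.23 in IRI + RPostC and 8.78 ± 0.07 in control (adjusted p = 3.59e-06). Dcn, the proteoglycan decorin, carried the same 18.82 on all 6 IRI + RPostC and IRI arrays, against 12.66, 12.28 and 12.16 in control hearts, and its difference of 6.46 turned to -1.23 after quantile normalization. After quantile normalization 9 of the 44 were higher and 16 lower. In the integrin, adhesion and stress fibre list 18 of 41 were higher and 2 lower with a median of 0.48, against 7 higher, 16 lower and a median of -0.21 after quantile normalization. Of 24 prostaglandin genes 6 were higher and 3 lower. Ptgs2, the inducible cyclooxygenase, rose with 12.27, 10.74 and 11.75 in IRI + RPostC hearts, 8.39, 9.55 and 10.37 in IRI hearts, and 5.88, 5.20 and 5.26 in control hearts (adjusted p = 0.000242), and Ptgds, a prostaglandin D2 synthase, fell by 1.96 on the log2 scale (adjusted p = 0.000287).

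Contractile genes gave the highest share of calls, 19 of 32 higher and 1 lower, with a median of 0.79 as deposited and -2.23 after quantile normalization. Their signals lay near the top of the scale, and 5 of the 32 had an array at 19 or more. Ttn, the giant spring of the sarcomere, stood at 18.97 on all 6 IRI + RPostC and IRI arrays, against 16.04, 15.58 and 15.82 in control hearts, a difference of 3.16 that turned to -2.26. Myom2, an M-band protein, differed by 4.06 and turned to -2.63. Oxidative phosphorylation followed the same pattern, with 15 of 40 subunits higher and 4 lower as deposited, against 2 higher and 32 lower after quantile normalization. Cycs, cytochrome c, had 15.93, 16.38 and 15.93 in IRI + RPostC hearts and 13.44, 13.50 and 13.10 in control hearts, and its 2.74 turned to -3.58. By its id this Cycs probe set lies on another chromosome than the gene, so it may measure a copy. Sdhc, a subunit of complex II, kept its direction, with 8.27, 8.41 and 8.38 in IRI + RPostC hearts and 5.83, 5.95 and 5.66 in control hearts and 2.01 after quantile normalization.

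In fuel use and its control, 5 of 35 fatty acid genes were higher and 6 lower, with a median of -0.01, against 1 higher and 26 lower after quantile normalization. Cd36, a fatty acid transporter, differed by 3.67 and Lpl, lipoprotein lipase, by 1.45, and these turned to -2.37 and -2.94 after quantile normalization. The regulators fell in both scalings. Ppargc1a, the coactivator of mitochondrial genes, had 7.79, 7.74 and 8.53 in IRI + RPostC hearts, 9.39, 8.29 and 7.55 in IRI hearts, and 12.26, 12.46 and 12.57 in control hearts (adjusted p = 0.000407). Pdk2, a kinase that shuts off pyruvate dehydrogenase, had 7.70, 8.58 and 8.43 in IRI + RPostC hearts and 12.50, 13.19 and 14.05 in control hearts (adjusted p = 0.000104). Slc6a8, the creatine transporter, was lower, at 7.42 ± 0.22 in IRI + RPostC, 7.40 ± 0.32 in IRI and 12.65 ± 0.92 in control (adjusted p = 0.000126). Fitm1, a protein of lipid droplet formation, had 5.75, 6.09 and 6.20 in IRI + RPostC hearts and 15.31, 15.12 and 14.92 in control hearts (adjusted p = 4.38e-07). Among 34 glycolysis and hypoxia genes 9 were higher and 6 lower with a median of 0.23, against 3 higher, 21 lower and a median of -0.95 after quantile normalization. Among 33 calcium handling and ion channel genes 6 were higher and 8 lower, against 2 and 17. Trdn and Hrc, which belong to the calcium release site of the sarcoplasmic reticulum, rose by 1.76 and 1.32, and these shrank to 0.09 and 0.15 after quantile normalization.

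The pathways through which conditioning is known to protect gave smaller shares of higher genes than the cytokine and interferon lists, though above the 10.2% of all genes as deposited. Of 29 salvage kinase and STAT3 genes 7 were higher and 5 lower, against 3 higher and 20 lower with a median of -0.60 after quantile normalization, and the 37 mediators and receptors of remote conditioning gave 6 higher and none lower, with 16 not above background in any group. Jak2, the kinase of cytokine receptors, had 9.79, 9.52 and 9.46 in IRI + RPostC hearts, 8.74, 8.73 and 9.37 in IRI hearts, and 7.46, 7.23 and 7.09 in control hearts (adjusted p = 0.000131). Stat3 rose with 12.03, 12.37 and 12.06 in IRI + RPostC hearts, 11.81, 11.57 and 11.57 in IRI hearts, and 9.75, 10.23 and 10.25 in control hearts (adjusted p = 8.39e-05), a difference of 2.08 that turned to -1.77 after quantile normalization. Of the mediators, Penk, the precursor of enkephalins, was 7.79 ± 0.60 in IRI + RPostC, 7.47 ± 0.31 in IRI and 5.32 ± 0.12 in control (adjusted p = 0.001), and Entpd1, which degrades extracellular ATP, was 9.26 ± 0.25 in IRI + RPostC, 8.87 ± 0.33 in IRI and 7.71 ± 0.15 in control (adjusted p = 0.00119). BCL2 family genes gave 5 higher and 3 lower of 28, with Mcl1, a guardian against mitochondrial death, at 13.87 ± 0.27 in IRI + RPostC and 8.54 ± 0.61 in control (adjusted p = 1.38e-05). Cell cycle genes gave 5 higher and 2 lower of 39, against 3 and 5 after quantile normalization, and heat shock genes 6 higher and 1 lower of 35, against 1 and 21. As deposited, autophagy genes gave 7 higher and 6 lower of 32, proteasome subunits 8 and 6 of 30, cyclic nucleotide genes 7 and 5 of 32, and antioxidant genes 7 and 7 of 38. After quantile normalization the same lists gave 3 higher and 22 lower for autophagy, 2 and 22 for the proteasome, 4 and 19 for cyclic nucleotides, and 3 and 24 for antioxidants. Psmd8, a proteasome subunit of the cap of that complex, was lower, at 6.69 ± 0.02 in IRI + RPostC and 7.52 ± 0.02 in control (adjusted p = 2.26e-06), and Pde7a, which degrades cyclic AMP, was lower, at 6.64 ± 0.02 in IRI + RPostC, 6.22 ± 0.08 in IRI and 9.23 ± 0.32 in control (adjusted p = 1.32e-05). Of 24 circadian and glucocorticoid response genes 9 were higher and 1 was lower, with Bhlhe40, a repressor of the clock, at 15.24 ± 0.32 in IRI + RPostC, 14.24 ± 0.15 in IRI and 8.35 ± 0.29 in control (adjusted p = 5.38e-07).

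**Figure D2:**
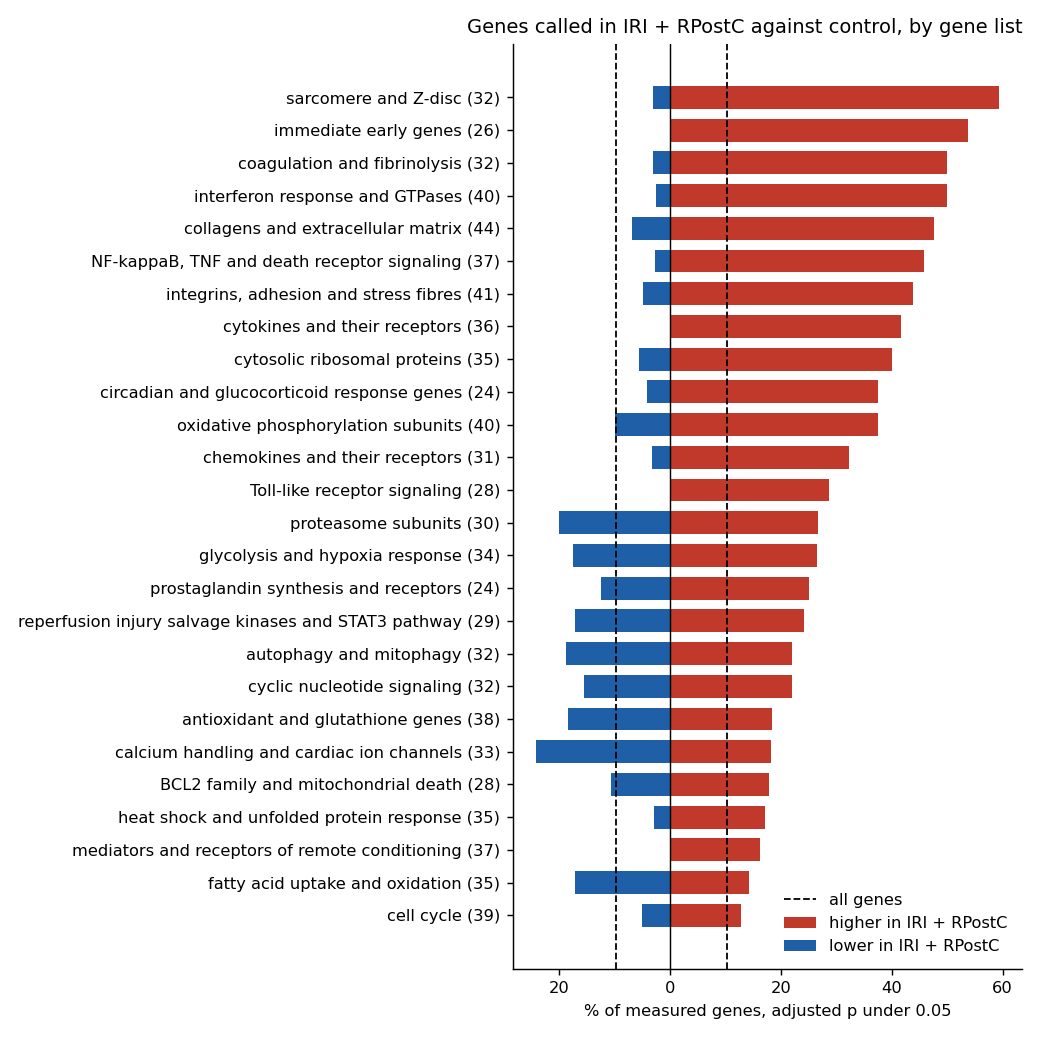
Share of the measured genes of each list with an adjusted p under 0.05 in IRI + RPostC against control, higher to the right and lower to the left, with the number measured in parentheses and dashed lines at the shares of all genes (10.2% and 9.84%). All 26 lists exceed the dashed line on the higher side and 11 exceed it on the lower side, as deposited.

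Markers of several cell types moved with these gene groups, and their part in the calls was not tested. Over all genes 10.2% were higher and 9.84% lower. Of 12 endothelial markers 8 were higher and none lower, and the log2 of their summed signal was 16.01 to 16.21 in IRI + RPostC, 15.62 to 16.53 in IRI and 12.24 to 12.43 in control. The median difference of the endothelial markers was 1.71, and 0.62 after quantile normalization. Of 11 fibroblast markers 6 were higher and 1 lower, with 18.87 to 18.88 in IRI + RPostC, 18.86 to 18.88 in IRI and 13.10 to 13.43 in control. The sum in IRI + RPostC was close to the signal of Dcn alone (18.82). The median difference of the fibroblast markers was 0.67, and -0.14 after quantile normalization. Neutrophil markers gave 5 of 12 higher, with a summed level of 9.79 to 10.67 in IRI + RPostC, 9.77 to 10.16 in IRI and 8.51 to 8.57 in control. Mpo, Mmp9, Camp and Fpr1 were not above background in any group. Macrophage markers gave 4 of 12 higher, with 10.38 to 10.92 in IRI + RPostC, 9.91 to 10.55 in IRI and 9.51 to 9.69 in control. Cardiomyocyte markers gave 3 of 11 higher and none lower, and their summed level was 21.22 to 21.23 in IRI + RPostC and 21.19 to 21.20 in control, with 2 of the 11 at 19 or more on an array. Their median difference was 0.33 as deposited and -4.54 after quantile normalization. Smooth muscle markers gave 1 of 11 higher and 1 lower. B cell, adipocyte, nerve, lung and skeletal muscle markers gave no gene higher, and the T cell list gave 1 of 11 higher with Cd3d, Cd3e, Cd8a and Lck not above background in any group.

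The genes asked about here were those apart from control in IRI + RPostC but not in IRI. The rule took probe sets with an adjusted p under 0.05 and no overlap with the control arrays in IRI + RPostC, and with an adjusted p of 0.05 or more and overlap with the control arrays in IRI. It gave 146 probe sets higher (0.223%) and 278 lower (0.425%), which held 0.209% and 0.247% of the genes. These counts were unstable, since leaving out control replicate 1, 2 or 3 gave 29, 40 or 46 higher and 93, 76 or 82 lower, and centring turned the balance to 336 higher and 108 lower. With 1 array of any group left out, 92 to 201 of the 424 members were shared. Both contrasts chose these members and share their control arrays, so the values that follow are a description. The IRI mean lay on the same side of control in 139 of the 146 and 263 of the 278. The median log2 difference from control of the higher set was 0.78 in IRI + RPostC and 0.33 in IRI, and of the lower set -0.51 in IRI + RPostC and -0.22 in IRI. In the higher set 81 of the 146 did not overlap the IRI arrays either, in the lower set 183 of the 278, where the shares over all probe sets were 2.63% and 3.2%. The choice of members with IRI near control raises these counts, so nothing is read from them. An IRI array reached into or past the IRI + RPostC range in 65 of the 146 and 95 of the 278. In 23 of the 146 and 20 of the 278 an IRI value was identical to an IRI + RPostC value. The smallest adjusted p between IRI + RPostC and IRI was 0.487 in the higher set and 0.709 in the lower set. At the threshold, Ube2v1-ps22 was just inside with an adjusted p of 0.0479 and Fzd6, a Wnt receptor, just outside with 0.05, and both turned to the lower side after quantile normalization (-0.12 and -0.29).

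The 2 directions differed in their makeup. Of the 146 higher probe sets 45 had a single symbol and 40 a protein-coding one, 15 had every group mean under 4.79, and 2 had an array at 19 or more. Of the 278 lower probe sets 53 had a single symbol and 39 a protein-coding one, while 209 had every group mean under 4.79. Of the 278, 16 belonged to the 1361 receptor probe sets, among 65403 tested, that set this limit. The lower direction therefore held mostly dim probe sets, and Inpp5f was the 1 bright protein-coding gene in it, against 30 in the higher direction. Every array median also lay under 4.79. Of 4547 lower calls 1231 were under it on all 6 IRI + RPostC and control arrays, against 65 of 7025 higher calls. The makeup of this set is therefore not read as its own trait. Inpp5f, a phosphoinositide phosphatase, had 6.03, 5.73 and 6.11 in IRI + RPostC hearts, 6.03, 6.35 and 6.59 in IRI hearts, and 6.47, 6.84 and 6.65 in control hearts.

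Reg3g, a secreted lectin best known as an antibacterial protein of the gut, stood far from the other members. Its log2 signals were 9.49, 8.98 and 11.59 in IRI + RPostC hearts, 5.26, 7.45 and 10.22 in IRI hearts, and 5.74, 5.12 and 5.25 in control hearts, and its difference from control was 4.65, or 25.1-fold. The IRI arrays spread from the control range into the IRI + RPostC range, with replicate 1 at the low end and replicate 3 at the high end. It kept a difference of 3.99 after quantile normalization.

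Several further members act in growth factor signaling, adhesion or the matrix, and are described together for their known roles, without a test of that grouping. Fgf2, the basic fibroblast growth factor that acts on endothelial cells and cardiomyocytes, had 8.41, 8.56 and 8.28 in IRI + RPostC hearts, 8.07, 7.63 and 7.97 in IRI hearts, and 7.71, 7.57 and 7.60 in control hearts. No IRI + RPostC array of Fgf2 overlapped an IRI array. Pdgfra, a PDGF receptor that marks fibroblasts, had 7.82, 8.03 and 7.91 in IRI + RPostC hearts, 8.01, 7.72 and 7.37 in IRI hearts, and 7.49, 7.24 and 7.03 in control hearts, and here the groups overlapped. Mfap4, a protein of elastic microfibrils, had 9.01, 8.50 and 9.31 in IRI + RPostC hearts, 8.42, 8.42 and 8.26 in IRI hearts, and 8.27, 8.13 and 7.83 in control hearts. Itgb8, an integrin subunit that frees TGF-β from its latent form, had 5.53, 5.95 and 6.13 in IRI + RPostC hearts, 5.95, 5.35 and 5.07 in IRI hearts, and 5.10, 4.06 and 4.28 in control hearts. Wls, which carries Wnt proteins to the cell surface, and Lrp1, an endocytic receptor, differed from control by 0.32 and 0.34. Actn1, an actin crosslinker of stress fibres, had 7.71, 7.81 and 7.59 in IRI + RPostC hearts, 7.09, 7.44 and 7.61 in IRI hearts, and 7.08, 7.27 and 7.12 in control hearts. After quantile normalization the differences were -0.20 for Fgf2, -0.12 for Pdgfra, -0.36 for Mfap4, -0.42 for Wls, -0.39 for Lrp1 and -0.21 for Actn1, so their direction turned, while that of Itgb8 was 1.33.

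Genes of metabolism and stress defense were few. Sod2, the superoxide dismutase of mitochondria, had 12.67, 12.74 and 12.56 in IRI + RPostC hearts, 12.18, 12.56 and 12.56 in IRI hearts, and 12.26, 12.28 and 12.12 in control hearts, and Ldha, the lactate dehydrogenase subunit of anaerobic glycolysis, had 11.33, 11.35 and 11.43 in IRI + RPostC hearts, 11.05, 11.37 and 11.33 in IRI hearts, and 10.91, 10.79 and 11.14 in control hearts. IRI arrays of replicates 2 and 3 lay at or beside the IRI + RPostC values in both genes, while replicate 1 lay near control. Their differences from control, 0.44 and 0.42, turned to -5.76 and -4.84 after quantile normalization. Of the antioxidant, glycolysis, ribosome and integrin lists, Sod2, Ldha, Rpl13 and the pair Actn1 and Itgb8 were the members of this set, and the other 22 lists had none.

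Gem, a small GTPase that restrains calcium channels, averaged 6.86 ± 0.20 in IRI + RPostC, 6.46 ± 0.13 in IRI and 5.99 ± 0.40 in control (SD, n = 3 each). Wars1, the tryptophan tRNA synthetase that interferon-gamma induces, had 7.61, 7.58 and 8.05 in IRI + RPostC hearts, 7.34, 7.14 and 7.34 in IRI hearts, and 7.26, 6.70 and 6.82 in control hearts. Ms4a4a and Ms4a6b, membrane proteins known from macrophages, differed from control by 0.85 and 0.78. These 4 genes, together with Reg3g, Pabir2 (0.74) and Katnbl1 (0.50), a katanin-related protein, were the 7 of the 25 named higher genes that stayed above control after quantile normalization, and the other 18 turned. All 25 stayed above control after centring.

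The remaining named members have varied roles. Of 35 cytosolic ribosomal proteins 14 were higher against control and 2 lower, and after quantile normalization 2 were higher and 24 lower. Rpl13 and the ribosomal-protein-like genes Rpl27l7 and Rpl32l4 differed by 1.01, 1.14 and 0.66, with near-identical copies elsewhere in the genome that the probes may share. By its id the Rpl13 probe set lies on another chromosome than the gene, so it may measure a copy. Atl2, which shapes the endoplasmic reticulum, Slc30a7, a zinc transporter, and Scarb2, a lysosomal membrane protein, differed by 0.61, 0.58 and 0.54. Med13, a Mediator subunit, Lrrc2 and Myef2 differed by 0.50, 0.43 and 0.40, and Ube2v1-ps22 by 0.84. Atl2, Scarb2, Myef2, Rpl13 and Rpl32l4 shared their value on IRI replicates 1 and 2 with an IRI + RPostC array. Med13 did so on IRI replicate 2. Lrrc2 had 9.89 on all 3 IRI + RPostC arrays and on 2 IRI arrays, so its place in the set rested on IRI replicate 2, at 9.48. After quantile normalization each of these 10 genes turned to the lower side, with differences of -0.11 for Rpl13, -1.49 for Rpl27l7, -1.15 for Rpl32l4, -0.62 for Atl2, -0.15 for Slc30a7, -1.20 for Scarb2, -4.93 for Med13, -1.76 for Lrrc2, -0.72 for Myef2 and -0.12 for Ube2v1-ps22. Of noncoding genes with a mean signal of at least 6, Hnrnpf-ps2 differed by 0.93, Slc25a5-ps9 by 0.78 and Esco1-ps1 by 0.58, and Slc25a5-ps9 turned to -1.73. Mir30d, described above, was lower, with a difference of -0.96.

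**Figure D3:**
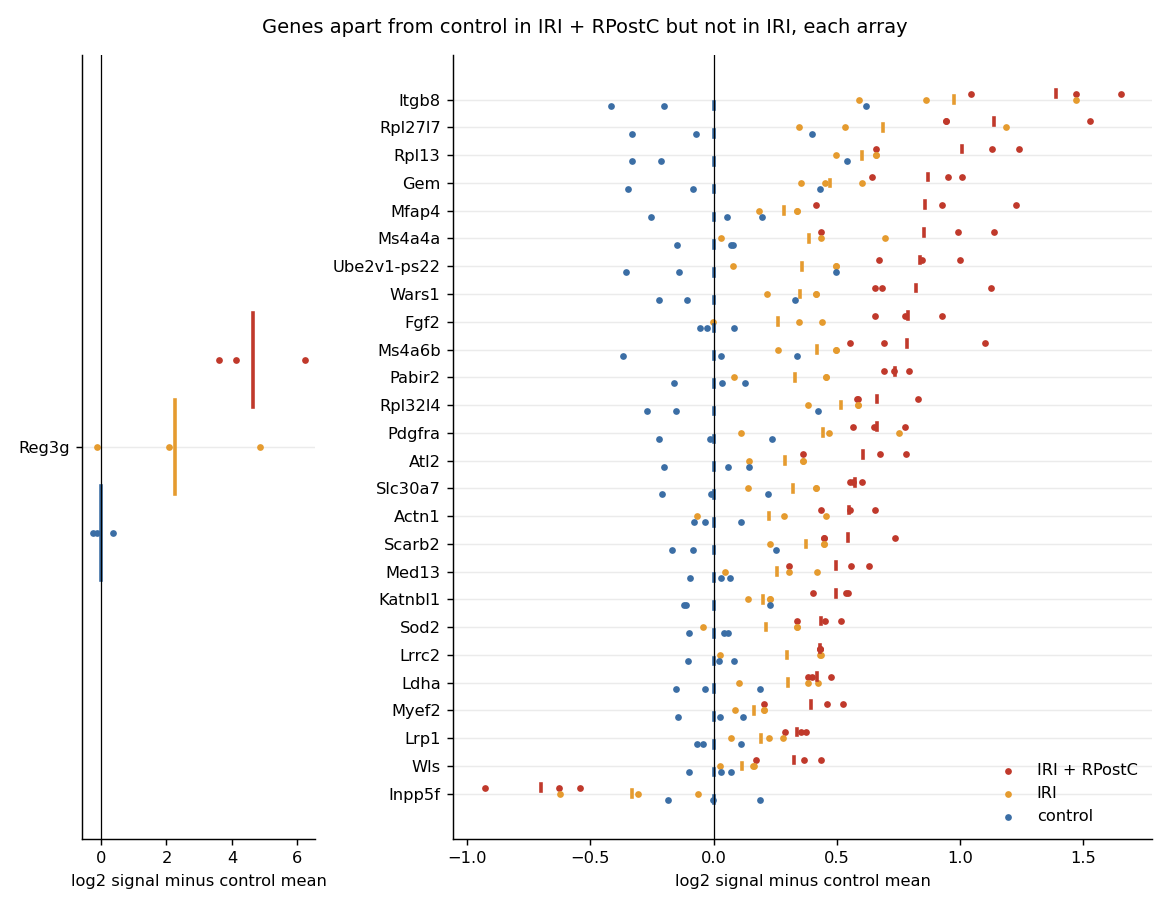
Log2 signal of each array minus the control mean (horizontal axis) for the 25 higher genes, Inpp5f and Itgb8, which stood apart from control in IRI + RPostC but not in IRI, with vertical ticks at the group means. Reg3g has its own scale at the left, and in most rows the IRI mean lies between the means of IRI + RPostC and control.

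**Figure D4:**
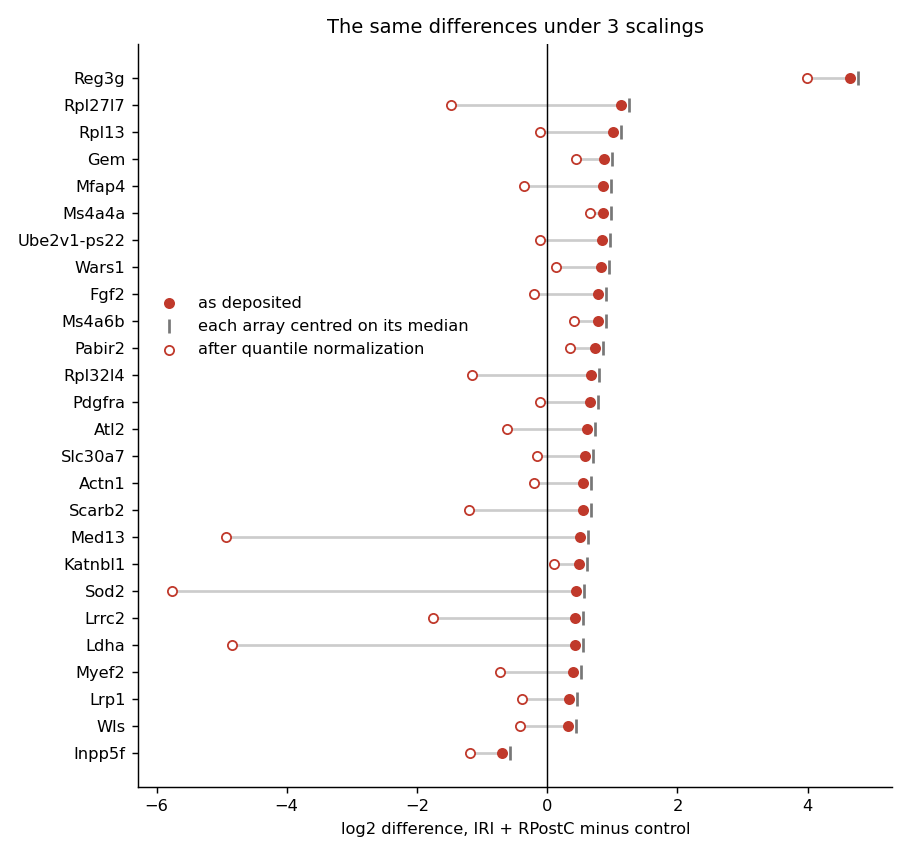
Log2 difference of IRI + RPostC from control for the 26 named genes as deposited (filled), after centring (tick) and after quantile normalization (open). After quantile normalization 18 of the 25 higher genes lie left of 0 and 7 stay right of it, while Inpp5f is left of 0 in each.

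Requiring overlap of the IRI arrays left out genes at which IRI lay between the other groups. Without that requirement, an alternative chosen after the values were seen, 925 probe sets were higher (1.41%) and 1066 lower (1.63%), or 1.72% and 1.45% of the genes, with 350 and 255 protein-coding. The median difference from control of the higher set was 0.82 in IRI + RPostC and 0.52 in IRI. An IRI array reached into or past the IRI + RPostC range in 726 of the 925, and 297 had an IRI value identical to an IRI + RPostC value. The genes that follow had the largest difference among bright protein-coding genes whose IRI arrays did not overlap control, and were chosen on these contrasts.

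Vcam1 had the largest difference of these genes, and it is given first with other genes of adhesion and inflammation. Vcam1, which holds monocytes and lymphocytes on the vessel wall, had 12.99, 11.11 and 10.21 in IRI + RPostC hearts, 7.05, 10.71 and 11.83 in IRI hearts, and 6.93, 6.36 and 5.76 in control hearts. IRI replicate 1 lay beside the control arrays and IRI replicate 3 within the IRI + RPostC range. Selp, the P-selectin on which leukocytes roll, had 9.47, 9.05 and 7.57 in IRI + RPostC hearts, 6.33, 7.75 and 8.72 in IRI hearts, and 5.53, 5.52 and 5.11 in control hearts, and Ceacam1, an adhesion molecule of epithelium and endothelium, had 7.07, 7.34 and 8.12 in IRI + RPostC hearts, 6.32, 6.92 and 7.27 in IRI hearts, and 6.31, 6.08 and 6.11 in control hearts. Birc3, an NF-κB target that blocks death receptor signaling, had 8.90, 8.49 and 8.37 in IRI + RPostC hearts, 6.97, 7.96 and 8.74 in IRI hearts, and 6.81, 6.73 and 6.53 in control hearts. Cxcl10, the interferon-induced chemokine, had 7.90, 6.64 and 6.49 in IRI + RPostC hearts, 6.17, 6.17 and 6.74 in IRI hearts, and 5.66, 5.02 and 4.97 in control hearts, and Clec4e, a macrophage receptor for dead cells, had 6.88, 6.49 and 6.39 in IRI + RPostC hearts, 5.42, 5.95 and 6.73 in IRI hearts, and 5.30, 4.99 and 5.22 in control hearts. In Vcam1, Selp, Birc3, Ceacam1 and Clec4e the lowest IRI array was replicate 1 and the highest replicate 3.

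Other genes placed the IRI arrays in the opposite order. Mrc1, the mannose receptor of resident macrophages, had 9.11, 10.07 and 9.72 in IRI + RPostC hearts, 9.56, 9.11 and 8.18 in IRI hearts, and 7.85, 7.50 and 7.44 in control hearts. Pla1a, a phospholipase that acts on phosphatidylserine, had 9.03, 10.74 and 10.66 in IRI + RPostC hearts, 10.21, 9.29 and 7.66 in IRI hearts, and 6.85, 6.56 and 6.18 in control hearts. Ece1, the enzyme that releases endothelin, had 9.33, 9.83 and 9.13 in IRI + RPostC hearts, 9.88, 9.02 and 8.68 in IRI hearts, and 8.14, 7.85 and 8.12 in control hearts. Here IRI replicate 1 was the highest of its group and replicate 3 the lowest. Among the 350 protein-coding probe sets of the higher set the IRI array nearest to control was replicate 1 in 58, replicate 2 in 40 and replicate 3 in 110, with a tie in 142. Left out in turn, IRI replicates 1, 2 and 3 brought 65, 19 and 45 of the 925 to a call in IRI.

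Of the 30 such genes with the largest rise, 2 had every IRI + RPostC array above every IRI array, which held for 2.89% of all genes. These were Nrarp, a feedback inhibitor of Notch signaling, and Cd302, a C-type lectin of phagocytes. Nrarp had 6.85, 7.12 and 6.34 in IRI + RPostC hearts, 6.02, 6.02 and 5.78 in IRI hearts, and 5.18, 5.73 and 5.21 in control hearts, and Cd302 had 8.76, 8.42 and 8.22 in IRI + RPostC hearts, 8.02, 8.11 and 8.02 in IRI hearts, and 7.27, 6.49 and 7.53 in control hearts. In the others the IRI arrays reached the IRI + RPostC range. Trh, the precursor of thyrotropin-releasing hormone, had 7.70, 6.05 and 7.08 in IRI + RPostC hearts, 5.74, 5.81 and 6.41 in IRI hearts, and 4.99, 4.54 and 4.31 in control hearts. Smyd1, a muscle methyltransferase needed for sarcomere assembly, had 8.55, 9.23 and 9.08 in IRI + RPostC hearts, 7.84, 8.64 and 8.55 in IRI hearts, and 7.63, 7.68 and 7.52 in control hearts. For Il1a, an alarm cytokine not above background in control, 5.07, 7.33 and 7.17 in IRI + RPostC hearts and 5.07, 4.89 and 5.08 in IRI hearts were measured, so IRI + RPostC replicate 1 lay with the IRI arrays and replicates 2 and 3 far above them. Hspa8, the constitutive heat shock protein, had 11.18, 10.44 and 10.49 in IRI + RPostC hearts, 10.44, 10.44 and 10.50 in IRI hearts, and 10.09, 8.84 and 9.08 in control hearts, and its difference of 1.37 turned to -0.87 after quantile normalization. Of the 30 genes 27 kept their direction after quantile normalization.

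On the lower side the same set held Defb49, of the defensin family, with 4.33, 4.57 and 4.55 in IRI + RPostC hearts, 5.01, 5.24 and 5.40 in IRI hearts, and 5.55, 6.07 and 6.45 in control hearts. Vamp8, a protein of vesicle fusion, had 5.84, 5.53 and 5.59 in IRI + RPostC hearts, 6.03, 6.03 and 6.03 in IRI hearts, and 7.17, 6.69 and 6.30 in control hearts, and Wfs1, a protein of the endoplasmic reticulum, had 5.33, 5.80 and 5.66 in IRI + RPostC hearts, 5.65, 5.81 and 5.81 in IRI hearts, and 6.11, 6.54 and 7.21 in control hearts. Pgam2, the phosphoglycerate mutase of muscle, and Rpl3l, the ribosomal protein of striated muscle, differed from control by -0.87 and -0.73. Spred2, an inhibitor of the Ras and ERK pathway, differed by -0.81. All 12 genes of largest fall in this set stayed under control after quantile normalization. Of the 12, 3 did not overlap the IRI arrays, where 1.68% of all genes lay below them. The choice of members by a large fall and no call in IRI raises this count, so nothing is read from it.

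**Figure D5:**
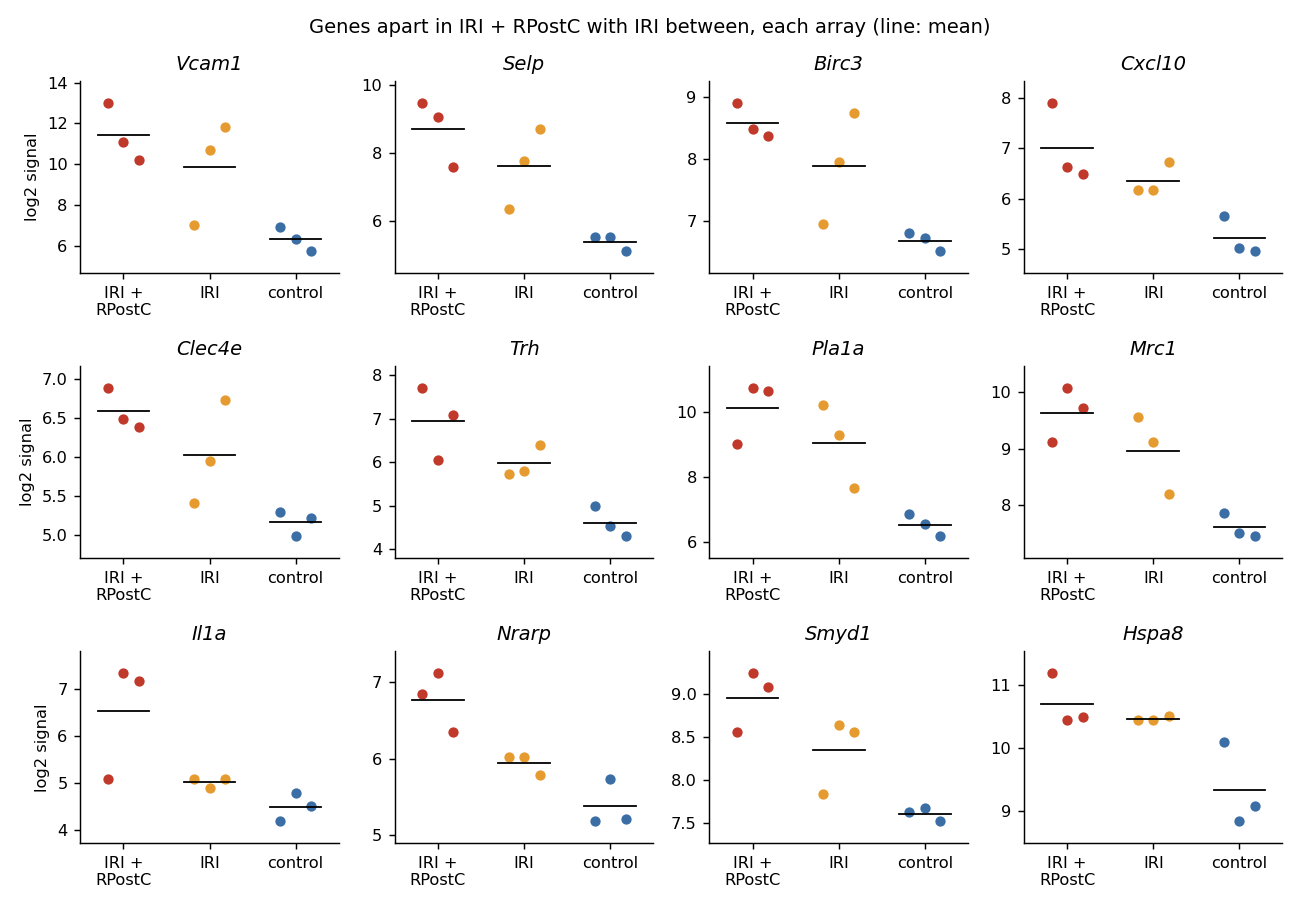
Log2 signal on each array of 12 genes apart from control in IRI + RPostC and not called in IRI, with replicates 1 to 3 from left to right in each group and a line at the group mean. Vcam1, Selp, Birc3 and Clec4e show IRI replicate 1 near control and replicate 3 near IRI + RPostC, and Pla1a and Mrc1 show the opposite order.

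A further group was called in both comparisons but lay highest in IRI + RPostC. These genes were the 12 of largest difference between IRI + RPostC and IRI among bright protein-coding genes called in both whose IRI + RPostC arrays lay above all IRI and all control arrays, and were chosen after their values were seen. Icam1, the partner of leukocyte integrins, had 10.62, 9.95 and 9.18 in IRI + RPostC hearts, 7.17, 8.54 and 8.77 in IRI hearts, and 5.74, 5.49 and 5.25 in control hearts. Gfpt2, the gate of hexosamine synthesis, had 14.23, 13.31 and 13.97 in IRI + RPostC hearts, 12.34, 11.81 and 12.57 in IRI hearts, and 7.58, 7.36 and 7.10 in control hearts. Mt1f, a metallothionein, had 12.09, 12.80 and 12.20 in IRI + RPostC hearts, 11.34, 10.40 and 10.53 in IRI hearts, and 6.10, 5.95 and 6.29 in control hearts. Stc1, a secreted glycoprotein that acts on calcium and mitochondria, averaged 12.20 ± 1.00 in IRI + RPostC, 10.49 ± 0.49 in IRI and 8.20 ± 0.23 in control (SD, n = 3 each). Hamp, the iron hormone hepcidin, had 8.10, 9.42 and 9.48 in IRI + RPostC hearts, 7.90, 7.10 and 7.28 in IRI hearts, and 4.81, 4.97 and 5.37 in control hearts, and F2r, the thrombin receptor, had 10.45, 10.69 and 11.09 in IRI + RPostC hearts, 9.85, 9.68 and 9.48 in IRI hearts, and 8.65, 8.31 and 9.16 in control hearts. Fabp5, a fatty acid binding protein of endothelium and macrophages, had 13.78, 13.74 and 13.84 in IRI + RPostC hearts, 12.92, 12.44 and 12.44 in IRI hearts, and 6.63, 6.96 and 5.94 in control hearts. All 12 kept their direction against control after quantile normalization, and none of them passed an adjusted p of 0.05 between IRI + RPostC and IRI.

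The opposite case, apart in IRI and not in IRI + RPostC, was rarer in the main fit. The 424 probe sets of the first set became 122, 116 or 128 without control replicate 1, 2 or 3. A count of the opposite case under these alternatives is not given here. In the main fit the opposite case held 64 probe sets higher (0.0979%) and 97 lower (0.148%), or 0.00952% and 0.0999% of the genes, with 1 and 14 protein-coding. No bright protein-coding gene was higher, and 5 were lower, 3 of them Dnajb6-ps4, LOC100359916 and LOC102555453. The difference of LOC102555453 in IRI + RPostC was 0.03 and turned to -5.18 after quantile normalization. Hspb6, a small heat shock protein of muscle, averaged 7.60 ± 0.38 in IRI + RPostC, 7.35 ± 0.19 in IRI and 8.23 ± 0.25 in control (SD, n = 3 each). Cdh2, the cadherin of the intercalated disc, averaged 8.88 ± 0.19 in IRI + RPostC, 8.61 ± 0.22 in IRI and 9.28 ± 0.25 in control (SD, n = 3 each). For Hspb6 and Cdh2 the IRI + RPostC mean lay between those of IRI and control, and its arrays overlapped those of both.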

How the data were processed

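RNA of the left ventricle was hybridized to 9 arrays, 3 per group. The authors deposited log2 signals made with robust multichip analysis (RMA), which subtracts background, normalizes between arrays and summarizes probes. The study's text names a rat gene array and the series record a human transcriptome array, while the probe annotation is that of rat, and the version of RMA was not given in the sources used here. No depth applies to arrays, and their number limits the precision. Array controls were left out, and 1 model over all 9 arrays was fitted by lmFit and eBayes of the limma package (3.58.1, under R 4.3.3), with Benjamini-Hochberg adjustment over 65403 probe sets. In simulated data with 100 changed probe sets of each size, 61% of those with a log2 change of 1 and 89% of those with 2 were recovered, with 5 false calls. The simulated noise was independent and normal, without identical values, saturation or a shift between groups, so recovery in the real data may differ.

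Gene symbols came from the platform annotation, where 478 probe sets had several symbols and 42855 had none, and of the 21013 genes 20887 matched RefSeq. Most genes of chromosomes 19 and 20 and some further rows were not analysed here. Named genes were the 25 higher and up to 15 lower protein-coding genes of largest difference that were apart in IRI + RPostC but not in IRI, with a group mean of at least 6 and no array at 19 or more, the members of that set in each gene list (up to 3) or else the 2 of smallest p, and the 5 of largest difference in the opposite set and among noncoding genes. The largest changes, the miRNA genes, the genes with IRI between and those highest in IRI + RPostC were added after their values were seen, and not all genes that qualified are described. The members and lists were chosen with earlier results of these data known. The alternatives were array weights, each comparison fitted alone, a minimum mean of 6, centring, quantile normalization, the methods' t-test, a replicate block, trend and robust options, a fold of at least 1.5, leaving out saturated probe sets, and leaving out each array.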

Additional observations from a re-analysis of the deposited data

How the results depend on the processing

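Of 1888 values of the 105 named genes under the alternatives, 1516 kept their direction and their side of the threshold, 334 no longer passed it, 9 newly passed it and 29 turned, all of these after quantile normalization. The counts of probe sets apart in IRI + RPostC but not in IRI moved most. Centring gave 336 higher and 108 lower with 2693 lower against control in all, and the methods' t-test gave 52 and 76 with 2089. Quantile normalization gave 235 higher with 9271 lower against control. A minimum mean of 6 gave 209 higher and 46 lower in the set, with 2129 lower against control, and 72 of the 424 members were shared. A fold of at least 1.5 left 95 lower in the set and 2581 lower against control. Without the overlap of the IRI arrays, an alternative chosen after the data were seen, the counts were 925 and 1066. With 1 array left out the set ranged over 29 to 195 higher and 76 to 390 lower, and the counts against control over 5921 to 6988 higher and 3006 to 4868 lower. Among the runs that left out 1 array, the lowest counts of the set came without a control array, 29 higher without replicate 1 and 76 lower without replicate 2. Of the 424 members, 159 were shared after centring, 143 after quantile normalization, 60 with the t-test and 92 to 201 with 1 array left out. IRI + RPostC against IRI gave 0 calls under each alternative. The replicate block gave 6338 and 3784 against control and 109 and 225 in the set. The replicate numbers did not pair the arrays, as deviations of same-numbered IRI + RPostC and IRI arrays correlated at -0.30, 0.03 and -0.14. Differently numbered arrays of these groups correlated at -0.35 to 0.40, the highest for IRI replicate 3 with IRI + RPostC replicate 1. After quantile normalization the log2 differences that turned were -1.49 for Rpl27l7, -0.11 for Rpl13, -0.36 for Mfap4, -0.12 for Ube2v1-ps22, -0.20 for Fgf2, -1.15 for Rpl32l4, -0.12 for Pdgfra, -0.62 for Atl2, -0.15 for Slc30a7, -0.21 for Actn1, -1.20 for Scarb2, -4.93 for Med13, -5.76 for Sod2, -1.76 for Lrrc2, -4.84 for Ldha, -0.72 for Myef2, -0.39 for Lrp1, -0.42 for Wls, -3.58 for Cycs, -2.94 for Lpl, -2.37 for Cd36, -2.26 for Ttn, -2.63 for Myom2, -1.77 for Stat3, -1.23 for Dcn, -1.73 for Slc25a5-ps9, -5.18 for LOC102555453, -0.87 for Hspa8 and -0.29 for Fzd6. The cause of these shifts was not tested.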
